A study of Mus musculus with 14 samples.

Results

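The translation initiation factor genes of the mouse were followed in single oocytes with and without Kdm1a (also called Lsd1), which encodes a histone lysine demethylase. The genes were taken by name, as every gene of the count table whose symbol starts with Eif and a digit, leaving out Eif2c symbols (the older names of the Argonaute genes) and pseudogene symbols. This gave 55 of the 24064 genes in the table. The rule for membership reads the symbol alone.

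Initiation factors bring the ribosome, the initiator tRNA and the start codon of an mRNA together. The initiator tRNA is carried by eIF2, which eIF2B recharges with GTP and which kinases of the Eif2ak family can switch off, while eIF3 is the large scaffold on the small ribosomal subunit and the eIF4 factors recognise the cap of the mRNA and unwind its leader. In oocytes, transcription stops as growth ends, so that proteins needed during meiotic maturation and after fertilization are made from stored mRNA, and the proteins that bind the cap are known as a point where that use of stored mRNA is controlled.

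RNA-seq of single ovulated oocytes compared females able and unable to supply the egg with Kdm1a product. Controls were 4 wt/wt oocytes of strain C57BL/6J, here wt1, wt3, wt4 and wt5, and 1 Kdm1a f/f oocyte of a mixed B6;129 background, C3, whose conditional allele was intact. Mutant oocytes numbered 5, named D1 to D4 and D7, and came from Kdm1a f/f::Zp3-cre females of the same mixed background, in which the Zp3 promoter drives Cre in growing oocytes alone and removes the floxed part of Kdm1a there. Strain and the way libraries were named went with wt/wt against the rest, so a difference that rests on the wt/wt oocytes and a difference of strain cannot be told apart, and the f/f group held a single oocyte. Whether oocytes of a group came from different females was not given, and p-values measure the spread between these oocytes.

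Summed counts ran from 1375187 to 6928548 in the 5 control oocytes and from 2016701 to 6926076 in the 5 mutant oocytes, with C3 and D4 the deepest, each the sum of 2 libraries. Kdm1a was lower in every mutant oocyte than in every control oocyte, with a log2 fold change of −5.02 ± 0.86 (SE) and an adjusted p of 0.0011 in edgeR. Against wt/wt alone it was −4.05 and against f/f −6.58, with the f/f oocyte 2.51 above wt/wt on the log2 scale. Of 14 oocyte markers, all were tested and 10 were called higher in mutant oocytes, and their summed level was 19932 to 35108 CPM (counts scaled to 1e+06 per oocyte) in wt/wt, 56622 CPM in f/f and 57154 to 114815 CPM in mutant oocytes. Of 15 cumulus and granulosa markers, 8 were at 0 in every oocyte, Fshr, Foxl2 and Amh among them, and the sum was 11.2 to 67.9 CPM in wt/wt, 69.6 CPM in f/f and 83.9 to 154 CPM in mutant oocytes, most of it from Cyp19a1, which was called higher. Of 4 leukocyte markers, 3 were at 0 in every oocyte, and the sum, all of it Cd68, was 0.431 to 2.45 CPM in wt/wt, 0.443 CPM in f/f and 1.37 to 6.75 CPM in mutant oocytes, with Cd68 not called (log2 fold change 1.97, adjusted p = 0.0725, edgeR). The oocyte sum and the cumulus and granulosa sum were higher in the f/f oocyte than in every wt/wt oocyte. The oocyte marker sum of f/f stood close to the lowest mutant oocyte, but most of it was Gdf9, at 38234 CPM. Marker by marker, f/f lay below every mutant oocyte for Zp2, Zp3, Bmp15, Nlrp5, Zar1, Figla, Ooep, Padi6 and Npm2. It lay within the mutant range for Zp1, Gdf9, Mos and Nobox and above it for Oosp1. These sums thus went with wt/wt against the rest as well as with the loss of Kdm1a, while single markers differed in this. The part of these levels in the results that follow was not tested.

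A gene was called when its edgeR quasi-likelihood test gave a Benjamini-Hochberg adjusted p under 0.05 over all genes tested and its log2 fold change was at least 1 in size. A gene that was not called is not thereby shown to be unchanged. Of the 55 genes, 44 had enough counts to be tested, and 13 of these were called, 9 higher and 4 lower in mutant oocytes. That share, 29.5%, stood near the 25.9% called over the 9198 genes tested, of which 14.7% were called higher and 11.2% lower. In 7 of the 44 genes, or 15.9%, the mutant and the control oocytes did not overlap, beside 16.2% of all genes tested. For the 44 genes the median was 0.15 on the log2 scale, and for all genes it was 0.17. The counts thus say nothing particular of the class, and the values of single members follow.

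**Figure D1:**
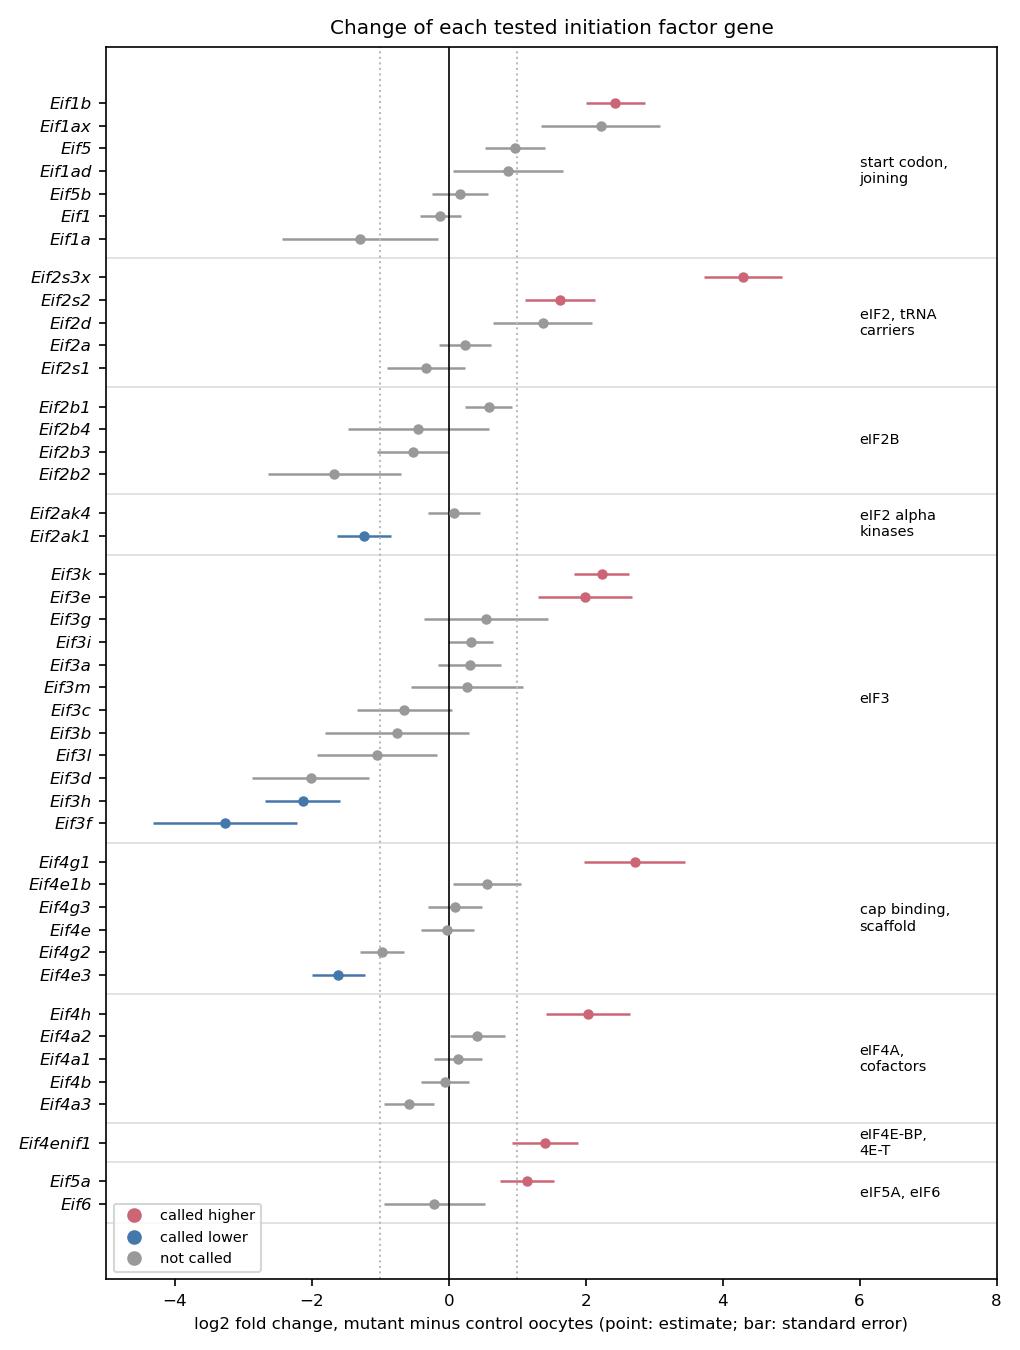
The plot gives the log2 fold change (mutant minus control oocytes, n = 5 each, edgeR) of the 44 tested genes on the horizontal axis, grouped by role on the vertical axis. Points are estimates, bars are standard errors, dotted lines mark a log2 fold change of 1 in either direction, and the 9 genes called higher and the 4 called lower are spread over most of the roles.

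The higher genes were Eif2s3x, Eif4g1, Eif1b, Eif3k, Eif4h, Eif3e, Eif2s2, Eif4enif1 and Eif5a, and the lower genes were Eif3f, Eif3h, Eif4e3 and Eif2ak1. Of the 13, 5 kept their call when any 1 oocyte was left out, namely Eif2s3x, Eif1b and Eif3k among the higher genes and Eif4e3 and Eif3h among the lower ones. The others depended on which oocytes were kept, as given with each gene. Without wt1, wt3, wt4, D1 or D4 the 13 called genes became 8, 7, 7, 7 and 8 in that order, and without C3 they became 16.

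Scaling mattered for the balance of directions. CPM were computed over library sizes adjusted by TMM, whose factors were 1.30 to 1.36 in wt/wt oocytes and 0.65 to 0.95 in the others. With library totals alone, the median log2 fold change over all genes went from 0.17 to −0.22, that of the initiation factor genes from 0.15 to −0.23, and among called genes of the whole table the higher ones went from 56.7% to 36.7%. Under that scaling 5 initiation factor genes were called higher, Eif1b, Eif2s2, Eif2s3x, Eif3k and Eif4g1, and 6 lower, Eif2ak1, Eif3d, Eif3f, Eif3h, Eif4e3 and Eif4g2. Eif3e, Eif4enif1, Eif4h and Eif5a kept a positive log2 fold change, at 1.66, 1.01, 1.49 and 0.74, but were no longer called. Counts are relative to the other RNA of an oocyte, and the amount of RNA per oocyte was not measured.

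The promoters of the members were compared by sequence. RefSeq windows of GRCm38.p6 covering 250 bases before an annotated start were at hand for 43 of the 55 genes. Motifs were searched on both strands, as exact letters. They were the GC box with the letters GGGCGG, the core of the sites of ETS factors with CCGGAA, the box named CCAAT, the TATA box written TATAAA, and an E-box, CACGTG, which reads the same on both strands. CACGTG, the form bound by basic helix-loop-helix factors such as USF and MYC, lay in the windows of 5 of 8 genes called higher, Eif1b, Eif3k, Eif4g1, Eif4h and Eif5a. It lay in 1 of 2 genes called lower, Eif3f, and in 2 of 25 tested genes that were not called, Eif4a1 and Eif4e. With Eif5a2, which was not tested, this made 9 of 43 genes, or 20.9%. Over all genes tested the share did not follow the calls, at 10% of genes called higher, 9.83% of those called lower and 10.4% of those not called. It lay in 10.3% of all genes tested and in 6.86% of all genes with a window. These letters were singled out after the shares were seen, and a match is a description of the sequence, not a site shown to be used. For each tested gene with an E-box outside annotated exons the stretch is shown here, with the E-box in capitals, so that the surrounding bases can be compared between 3 genes called higher, 1 called lower and Eif4a1, which was not called.
Eif3k, chr7:28981915-28981944, minus strand, 44 bases before an annotated start: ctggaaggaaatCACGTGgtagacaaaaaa
Eif4g1, chr16:20672661-20672690, plus strand, 54 bases before an annotated start: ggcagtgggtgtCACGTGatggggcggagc
Eif5a, chr11:69921443-69921472, minus strand, 74 bases before the nearer annotated start: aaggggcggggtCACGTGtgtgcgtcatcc
Eif3f, chr7:108934335-108934364, plus strand, 68 bases before an annotated start: caagatatgattCACGTGgtataaatttag
Eif4a1, chr11:69672595-69672624, minus strand, 189 bases before an annotated start: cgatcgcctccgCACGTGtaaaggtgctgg
The stretches of Eif4g1 and Eif5a lie inside the annotated genes, before internal starts, and those of Eif3k, Eif3f and Eif4a1 lie upstream of the whole gene. The GC box lay in 74.4% of the 43 initiation factor genes with a window, in 63.3% of the genes tested and in 35.4% of all genes with a window. For CCGGAA these shares were 39.5%, 26.0% and 13.6%, for CCAAT 32.6%, 41.7% and 37.5%, and for TATAAA 9.30%, 8.06% and 14.3%. In the order called higher, called lower and tested without a call, CCGGAA lay in 2 of 8, 1 of 2 and 10 of 25 genes, CCAAT in 3 of 8, 2 of 2 and 6 of 25, and TATAAA in 0 of 8, 1 of 2 and 2 of 25.

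Among the 44 genes Eif2s3x had the largest log2 fold change. It encodes the gamma subunit of eIF2, the part that binds GTP and the initiator tRNA, from a gene on the X chromosome (GRCm38 chrX:94188707-94212862, minus strand). Its level was 8.84, 11.6, 9.38 and 4.48 CPM in wt1, wt3, wt4 and wt5 and 8.42 CPM in the f/f oocyte. In mutant oocytes it was 195 CPM in D1, 103 CPM in D2, 119 CPM in D3, 391 CPM in D4 and 35.8 CPM in D7. The lowest mutant oocyte stood above the highest control, and the mutant oocytes differed widely among themselves. The log2 fold change was 4.30 ± 0.57 (SE, adjusted p = 0.000391, edgeR with Benjamini-Hochberg adjustment), and it was 3.73 to 4.58 when single oocytes were left out. The Y-linked copy of the gene, Eif2s3y, had 0.552 CPM in wt1, 0.861 CPM in wt3 and no count in the other 8 oocytes, so it was not tested.

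The other subunits of eIF2 went different ways. Eif2s2, which encodes the beta subunit, stood at 118, 106, 63.6 and 152 CPM in wt1, wt3, wt4 and wt5 and at 543, 441, 744, 898 and 495 CPM in D1, D2, D3, D4 and D7. The f/f oocyte, at 569 CPM, lay among the mutant oocytes and well above wt/wt. Eif2s2 was called higher against all controls (log2 fold change 1.63 ± 0.51, adjusted p = 0.0286, edgeR), and against the wt/wt oocytes alone the log2 fold change was 2.499, while the f/f and mutant oocytes differed by only 0.13 on the log2 scale. Its call was lost without any 1 of wt1, wt3, wt4, wt5 or D4, with an adjusted p of up to 0.0719. On the opposite strand of Eif2s2 lies the gene a (nonagouti), and whether reads were counted by strand was not given in the sources used here.

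Eif2s1, the alpha subunit and the one that stress kinases phosphorylate, was scarce in both groups. It had 14.4, 8.61, 15.9 and 4.92 CPM in the wt/wt oocytes, 9.97 CPM in f/f and 8.75, 3.04, 2.49, 14.6 and 13.4 CPM in D1, D2, D3, D4 and D7. D2 and D3 lay below every control and the other mutant oocytes among the controls, with a log2 fold change of −0.33 ± 0.57 (adjusted p = 0.703, edgeR). Eif2a and Eif2d, which encode other proteins able to deliver initiator tRNA, had log2 fold changes of 0.24 and 1.37 and were not called. Of the 6 genes in this group 5 were tested and 2 were called (40%), both higher. Over all genes tested 25.9% were called and 14.7% were called higher.

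Per transcript length, Eif2s2 was the main eIF2 transcript, since counts per kilobase of Eif2s1, Eif2s2 and Eif2s3x were 68.2% to 93.3% Eif2s2 in wt/wt, 96.4% in f/f and 66.2% to 89.8% in mutant oocytes. The share of Eif2s3x in the same sum was 3.09% to 11.3% in wt/wt, 1.60% in f/f and 7.30% to 32.5% in mutant oocytes. That share needs no scaling between oocytes, and by it D7 overlapped the wt/wt oocytes while the other mutant oocytes lay above them.

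**Figure D2:**
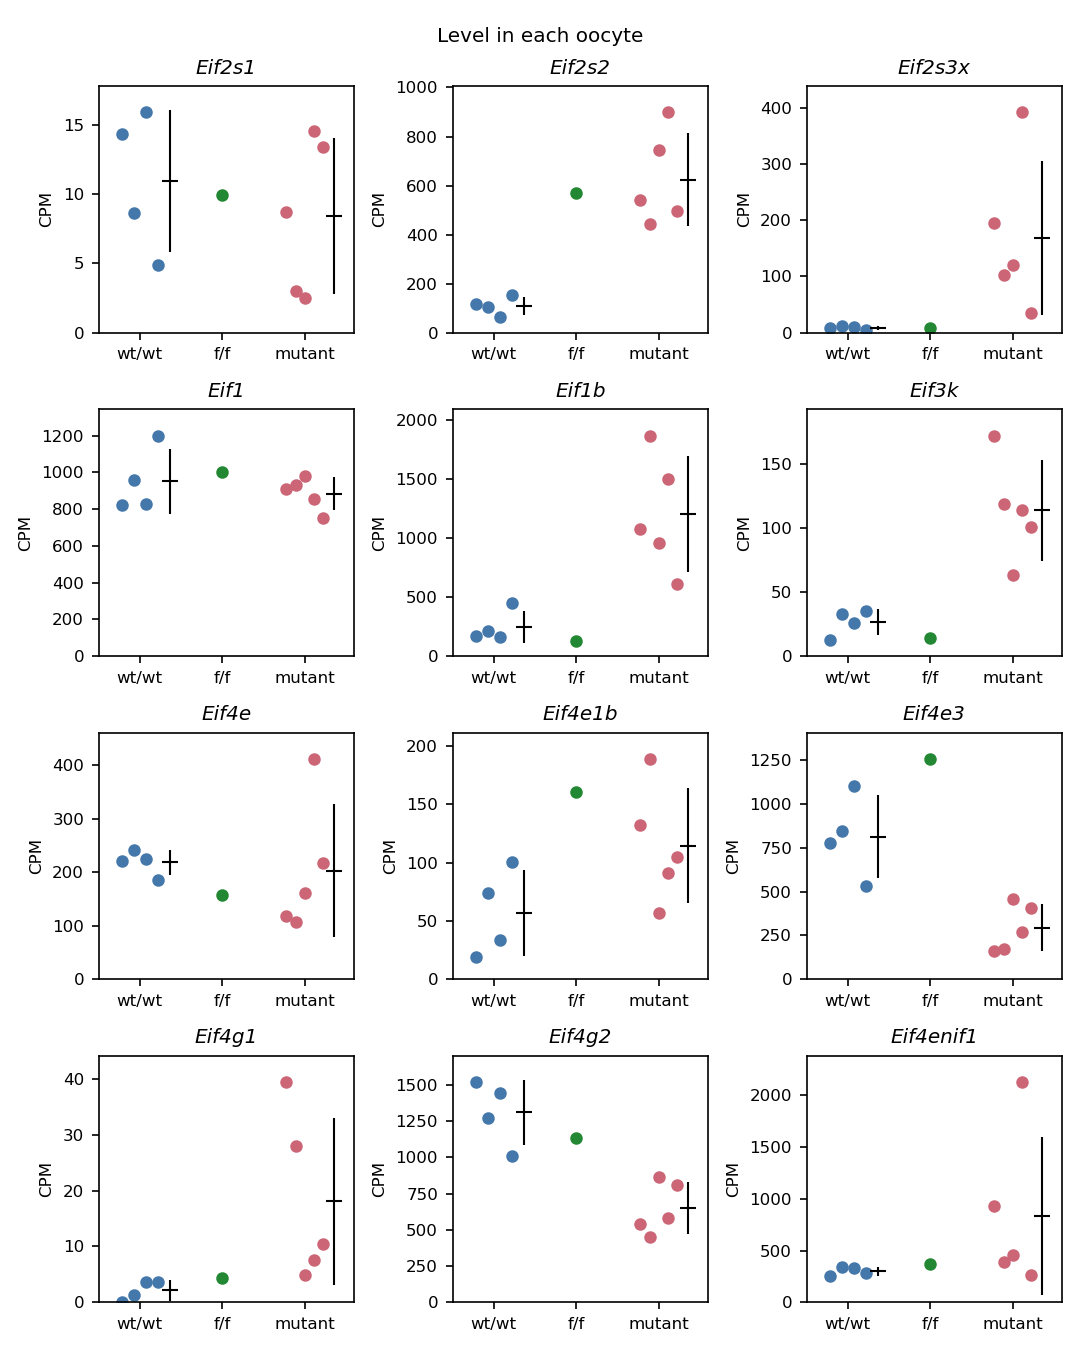
Each panel plots CPM (linear axis from 0) of 1 gene in the 4 wt/wt, 1 f/f and 5 mutant oocytes, with the mean and SD of wt/wt and of mutant oocytes as a tick and bar. Eif2s3x, Eif1b and Eif3k were higher in every mutant oocyte than in every control, Eif4e3 and Eif4g2 were lower, Eif2s1, Eif1 and Eif4e overlapped, and Eif4enif1 was far above the rest in 1 mutant oocyte.

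eIF2B, which exchanges the GDP of spent eIF2 for GTP, showed no called gene among the 4 tested of 5. Eif2b1, the alpha subunit, was by far its most abundant transcript per kilobase, and its level was 262 to 546 CPM in wt/wt, 554 CPM in f/f and 391 to 833 CPM in mutants, with a log2 difference of 0.59 that did not pass (adjusted p = 0.215, edgeR). Eif2b2, Eif2b3 and Eif2b4, the beta, gamma and delta subunits, stayed at or under 11.04 CPM in every oocyte, with log2 fold changes of −1.67, −0.52 and −0.44. Eif2b5, the catalytic epsilon subunit, had at most 9 counts in any oocyte and was not tested.

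Of the 4 kinases that phosphorylate eIF2 alpha, 2 were tested. Eif2ak1, the heme-regulated kinase (chr5:143817788-143904251, plus strand), had 222, 487, 434 and 328 CPM in wt1, wt3, wt4 and wt5, 258 CPM in f/f and 90.8, 228, 171, 65.1 and 181 CPM in D1, D2, D3, D4 and D7. The mutant oocytes were the lower group, and D2 overlapped the lowest wt/wt oocyte, wt1. The log2 fold change was −1.24 ± 0.39 (adjusted p = 0.0291, edgeR), and the call was lost without any 1 of wt3, wt4, D1 or D4, with log2 fold changes of −1.45 to −1.04 over the fits. Aimp2 and Ankrd61 lie on the opposite strand of Eif2ak1. Eif2ak4, the kinase that senses uncharged tRNA, had 188 to 333 CPM in wt/wt, 326 CPM in f/f and 168 to 490 CPM in mutant oocytes. Mutant oocytes lay on both sides of the controls (log2 fold change 0.08, adjusted p = 0.896, edgeR). Eif2ak3, the kinase of the endoplasmic reticulum, reached 5 counts at most, and Eif2ak2, the kinase activated by viral RNA, had 2 counts in D4 and none elsewhere, so that neither could be tested.

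Start codon selection showed a change in the balance of a close pair of genes. Eif1 and Eif1b encode near-identical proteins that keep the scanning ribosome from starting at the wrong codon. Eif1 stood at 823, 961, 827 and 1201 CPM in wt1, wt3, wt4 and wt5, at 1003 CPM in f/f and at 750 to 983 CPM in the mutant oocytes, with no called change (log2 fold change −0.12 ± 0.30, adjusted p = 0.787, edgeR). Eif1b (chr9:120492232-120495330, plus strand) had 172, 208, 159 and 451 CPM in wt1, wt3, wt4 and wt5 and 128 CPM in f/f. Mutant oocytes had 1080, 1869, 956, 1503 and 609 CPM in D1, D2, D3, D4 and D7. Every mutant oocyte lay above every control, although wt5 stood apart from the other controls. This was a log2 fold change of 2.43 ± 0.43 (adjusted p = 0.00132, edgeR), and 2.20 to 2.90 with single oocytes left out. Of the counts per kilobase of both genes, Eif1b made up 19.7% to 32.4% in wt/wt, 14.0% in f/f and 50.9% to 71.9% in mutant oocytes. An antisense gene, D830035M03Rik, overlaps Eif1b, and reads shared between copies as alike as Eif1 and Eif1b would have been dropped by the requirement for a unique alignment.

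The other genes of this step were not called. Eif1a and its X-linked counterpart Eif1ax encode eIF1A, which works beside eIF1 on the small subunit. Eif1ax had 6.07, 12.5, 0 and 4.48 CPM in wt1, wt3, wt4 and wt5, 1.55 CPM in f/f and 12.03, 7.90, 8.89, 76.0 and 5.97 CPM in D1, D2, D3, D4 and D7. D4 was far above the other mutant oocytes, which overlapped the controls, and the log2 fold change of 2.22 ± 0.88 did not pass (adjusted p = 0.0699, edgeR). In edgeR, Eif1ax was called higher with no filter on low counts (2.25, adjusted p = 0.0164) and without wt3 (2.89, adjusted p = 0.0471). It was also called with every library as its own sample (2.52, adjusted p = 0.0243). That fit treats libraries of the same oocyte as independent, so D4, with 2 libraries, counts as 2 samples. Eif1a had 4.42, 2.58, 0 and 3.13 CPM in the wt/wt oocytes, 0.664 CPM in f/f, none in D1, D2 and D3, 1.06 CPM in D4 and 2.98 CPM in D7, with a log2 fold change of −1.30 ± 1.14 and an adjusted p of 0.423 in edgeR. Eif5, which triggers GTP hydrolysis on eIF2 at the start codon, had 83.7 to 277 CPM in wt/wt, 403 CPM in f/f and 221 to 640 CPM in mutant oocytes, and its log2 fold change was 0.97 (adjusted p = 0.112, edgeR) against all controls and 1.34 (adjusted p = 0.0182) against wt/wt alone. Eif5b, which joins the large subunit, reached 772 CPM in f/f, above the 219 to 257 CPM of wt/wt and the 235 to 499 CPM of mutant oocytes. Eif1ad, named for its eIF1A domain, was not called, with a log2 fold change of 0.87.

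eIF3 held called genes in both directions, as did all genes tested (14.7% higher and 11.2% lower, 25.9% in either direction). Of its 14 genes 12 were tested, 2 were called higher and 2 lower, or 33.3%. Their median log2 fold change was −0.19 against all controls, −0.41 against wt/wt and 0.14 against f/f, and it was 0.38 with edgeR's filterByExpr, 0.34 without wt1 and −0.70 without D4, so that no direction held for the group. Eif3k (chr7:28971372-28981864, minus strand), a small peripheral subunit, had 12.7, 33.1, 25.7 and 35.4 CPM in wt1, wt3, wt4 and wt5, 14.2 CPM in f/f and 172, 119, 63.3, 114 and 101 CPM in D1, D2, D3, D4 and D7. Every mutant oocyte lay above every control (log2 fold change 2.23 ± 0.41, adjusted p = 0.00158, edgeR). The stretch with an E-box shown for Eif3k lies just upstream of this gene. Per kilobase, the share of Eif3k was 6.05% to 23.8% of the 12 eIF3 genes with counts in wt/wt, 9.83% in f/f and 33.8% to 58.2% in mutant oocytes, with no overlap between mutant oocytes and controls. Eif3i, the other abundant one, kept 57.7 to 138 CPM in wt/wt, 120 CPM in f/f and 104.8 to 144 CPM in mutant oocytes.

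Eif3h and Eif3f encode the pair of MPN-domain subunits of eIF3, and both were lower. Eif3h (chr15:51786558-51865523, minus strand) had 23.2, 15.1, 12.6 and 16.1 CPM in wt1, wt3, wt4 and wt5, 11.1 CPM in f/f and 1.09, 3.65, 3.56, 6.98 and 1.49 CPM in D1, D2, D3, D4 and D7. No mutant oocyte reached the lowest control (log2 fold change −2.13 ± 0.55, adjusted p = 0.0109, edgeR), and single oocytes left out gave −2.62 to −1.94. Eif3f (chr7:108934417-108942951, plus strand) had 34, 27, 1 and 18 counts in wt1, wt3, wt4 and wt5, 3 in f/f and 3, 2, 0, 7 and 0 in D1, D2, D3, D4 and D7. In CPM this was 18.8, 11.6, 0.408 and 8.06 in wt/wt, 0.664 in f/f and 0 to 1.64 in mutant oocytes. The f/f oocyte and wt4 thus lay with the mutant oocytes, and the difference came from wt1, wt3 and wt5. The log2 fold change of −3.26 ± 1.05 (adjusted p = 0.0314, edgeR) rests on those few counts, and the call was lost without any 1 of wt1, wt3, D2, D3, D4 or D7, with an adjusted p of up to 0.0977.

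Eif3e, whose product is a core subunit that contacts the eIF4G scaffold, was far above the rest in 1 mutant oocyte. It had 10.5, 9.04, 8.16 and 7.16 CPM in the wt/wt oocytes, 10.4 CPM in f/f and 19.7, 7.29, 8.18, 126 and 16.4 CPM in D1, D2, D3, D4 and D7. With D4 the log2 fold change was 1.99 ± 0.68 (adjusted p = 0.0409, edgeR), and without D4 it was 0.52 (adjusted p = 0.452). Leaving out wt1, wt3, wt4, wt5 or D1 also ended the call. Eif3d, which can bind the cap itself, had 6.12 to 14.4 CPM in wt/wt and 0 to 3.65 CPM in mutant oocytes, with f/f at 1.99 CPM inside the mutant range. In edgeR it was called against wt/wt alone (log2 fold change −2.27, adjusted p = 0.0453) and not against all controls (−2.02, adjusted p = 0.0885), where DESeq2 called it (adjusted p = 0.0416), as did library totals alone. Eif3a, Eif3b, Eif3c, Eif3g, Eif3l and Eif3m were not called, with log2 fold changes of −1.05 for Eif3l to 0.54 for Eif3g. Eif3j1 and Eif3j2, close copies of the gene for eIF3j, had no count in any oocyte, and reads that fit both copies equally were not counted.

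**Figure D3:**
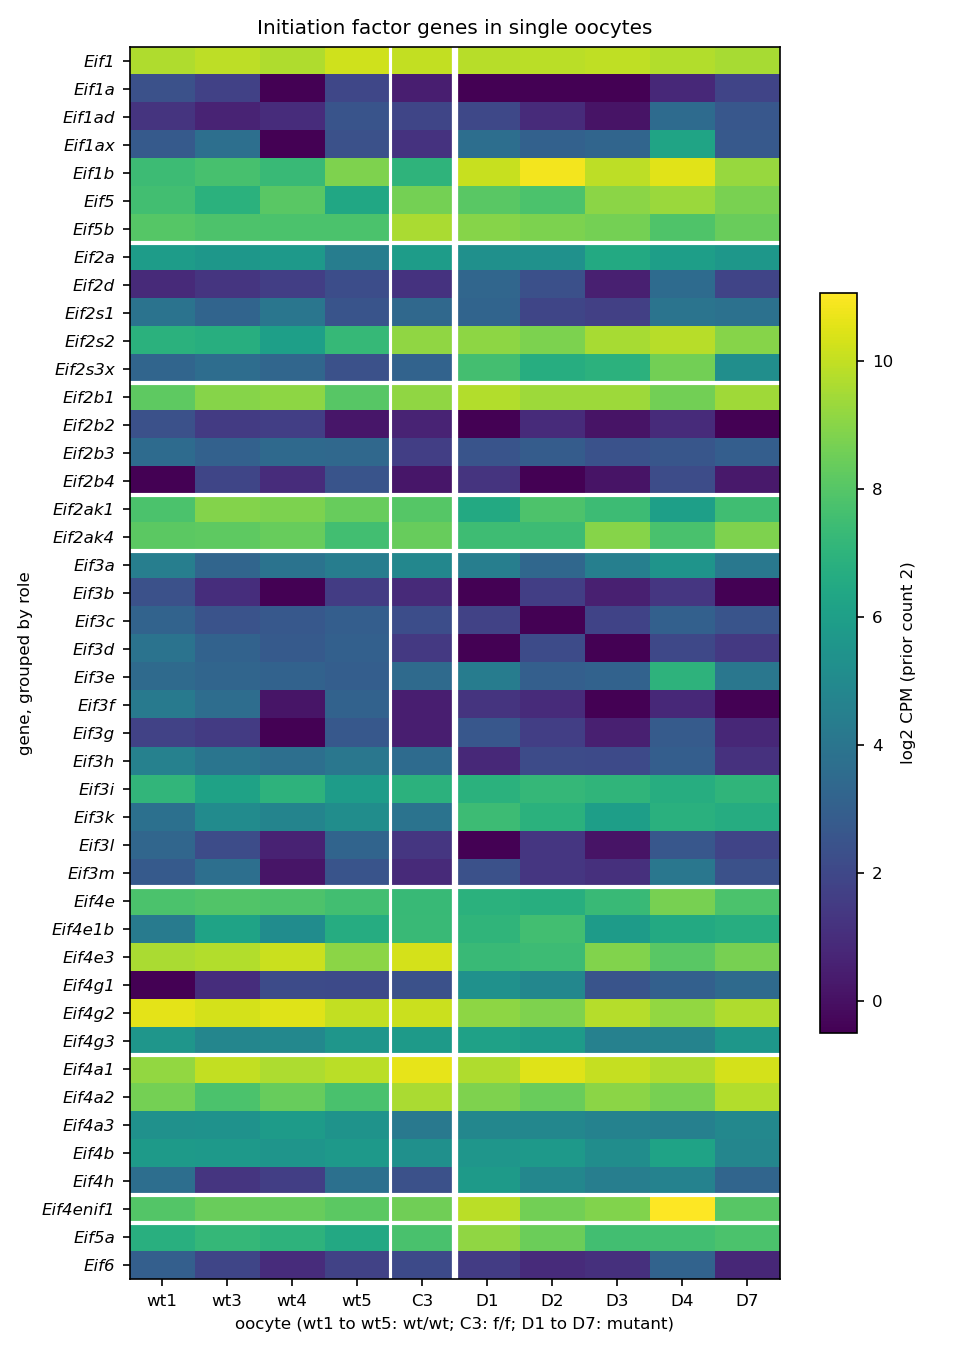
The heat map shows log2 CPM (prior count 2, colour scale) of the 44 tested genes in rows, grouped by role, in the 10 oocytes in columns, with the wt/wt oocytes, the f/f oocyte C3 and the mutant oocytes set apart by white lines. Eif1, Eif4a1 and Eif4g2 were high throughout, many eIF3 and eIF2B genes were low throughout, and D4 stands out for Eif1ax, Eif3e and Eif4enif1.

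Among the genes for proteins that bind the cap, Eif4e3 was lower in mutant oocytes and the others were not called. Eif4e encodes the classical cap-binding protein, Eif4e1b a form that is largely restricted to oocytes, Eif4e2 a form that represses, and Eif4e3 a divergent form. Eif4e3 (chr6:99625135-99666771, minus strand) had 779, 846, 1102 and 531 CPM in wt1, wt3, wt4 and wt5 and 1257 CPM in f/f. It had 162, 171, 460, 271 and 409 CPM in D1, D2, D3, D4 and D7. Each mutant oocyte was below each control, with a log2 fold change of −1.61 ± 0.39 (adjusted p = 0.00774, edgeR) and −1.82 to −1.46 when single oocytes were left out. Gm20696 overlaps Eif4e3 on the same strand.

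Eif4e itself was not called. It had 221, 242, 225 and 186 CPM in the wt/wt oocytes, 156 CPM in f/f and 118, 106, 161, 411 and 217 CPM in D1, D2, D3, D4 and D7, with a log2 fold change of −0.02 ± 0.38 (adjusted p = 0.974, edgeR). Eif4e1b had 19.3, 74.0, 33.9 and 100.2 CPM in the wt/wt oocytes, 160.4 CPM in f/f and 132, 189, 56.9, 90.9 and 104 CPM in D1, D2, D3, D4 and D7. The f/f oocyte was second to D2 alone, and the log2 fold change of 0.56 ± 0.50 did not pass (adjusted p = 0.427, edgeR). Eif4e2 had 4, 0, 7 and 11 counts in the wt/wt oocytes, none in f/f and 1, 0, 0, 8 and 0 in D1, D2, D3, D4 and D7, too few to test.

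Per kilobase of transcript, Eif4e3 held 71.1% to 87.6% of the 4 cap-binding genes in wt/wt, 82.4% in f/f and 38.3% to 75.6% in mutant oocytes. D3 was the mutant oocyte that stayed in the control range, while D1, D2, D4 and D7 lay below it. The share of Eif4e1b was 2.49% to 15.9% in wt/wt, 12.4% in f/f and 11.04% to 49.8% in mutant oocytes.

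**Figure D4:**
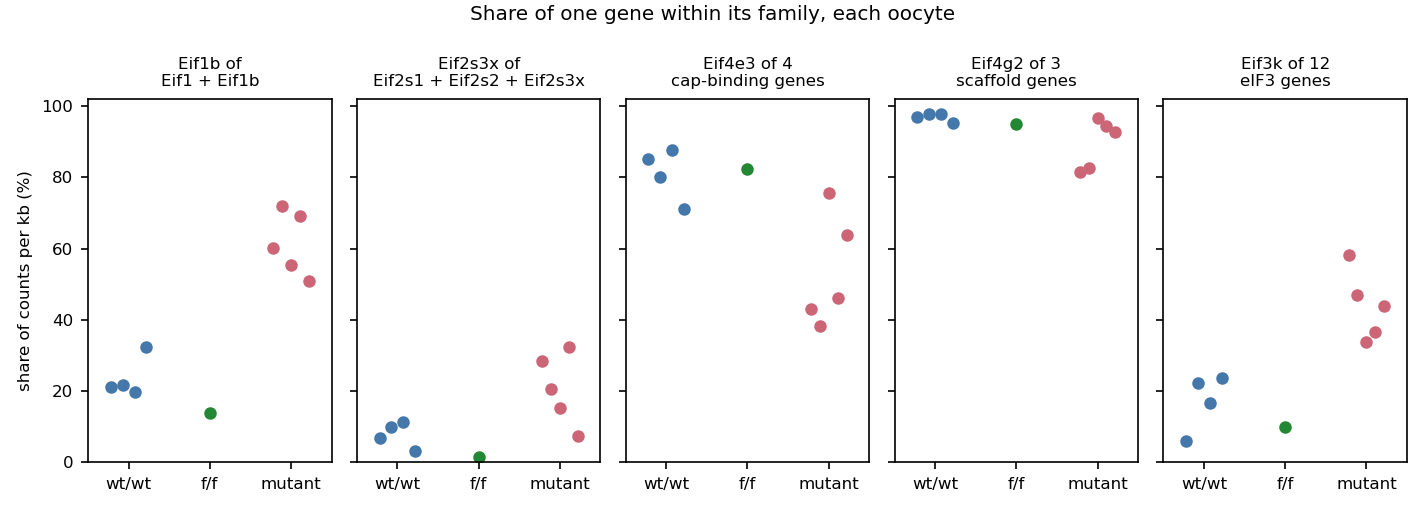
The vertical axis gives the share (%) of 1 gene in the counts per kilobase of its family, in each wt/wt, f/f and mutant oocyte, a quantity that does not depend on scaling between oocytes. The shares of Eif1b and of Eif3k were higher in all 5 mutant oocytes than in all 5 controls, that of Eif4e3 was lower in 4 of the 5, and those of Eif2s3x and Eif4g2 overlapped.

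Of the 3 eIF4G scaffold genes, whose classical products bridge the cap-binding protein and the helicase, Eif4g1 was called. Eif4g2 (chr7:111067750-111083030, minus strand) encodes DAP5, which lacks the part that binds eIF4E and serves initiation without it. It was the main scaffold transcript, with 1519, 1269, 1444 and 1008 CPM in wt1, wt3, wt4 and wt5, 1134 CPM in f/f and 539, 451, 866, 584 and 807 CPM in D1, D2, D3, D4 and D7. All mutant oocytes lay below all controls, and the adjusted p was 0.0346 in edgeR, but the log2 fold change of −0.97 ± 0.32 was just short of the size required for a call. Against wt/wt alone it was −1.003 (adjusted p = 0.0160) and was called.

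Eif4g1 (chr16:20668313-20692884, plus strand) encodes the classical scaffold and went the other way from a low level. It had 0, 1.29, 3.67 and 3.58 CPM in the wt/wt oocytes, 4.43 CPM in f/f and 39.4, 28.0, 4.98, 7.59 and 10.4 CPM in D1, D2, D3, D4 and D7. Every mutant oocyte was above every control, D3 only barely so. It was called at a log2 fold change of 2.71 ± 0.74 (adjusted p = 0.0150, edgeR), and without D1 it was no longer called (adjusted p = 0.0573). Eif4g3, the second classical scaffold gene, was not called, at 27.1 to 47.4 CPM in wt/wt, 54.5 CPM in f/f and 23.1 to 67.8 CPM in mutant oocytes. Counts per kilobase of the 3 scaffold genes were 95.1% to 97.8% Eif4g2 in wt/wt, 95.0% in f/f and 81.5% to 96.7% in mutant oocytes, lowest in D1 and D2. Coverage in libraries primed from the poly(A) tail reached no more than 3 kb from the transcript's end, so that counts per kilobase understate long transcripts such as Eif4g2, which ranked the sixth per kilobase among the members in controls over its whole length and the second when lengths were capped at 3 kb.

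Eif4enif1 encodes the eIF4E transporter, which ties eIF4E to stored and repressed mRNA. It had 250.1, 344, 328 and 282 CPM in the wt/wt oocytes, 371 CPM in f/f and 928, 387, 460.0, 2125 and 264 CPM in D1, D2, D3, D4 and D7. D4 and D1 were high, and D2, D3 and D7 stood close to the controls. This gave a log2 fold change of 1.40 ± 0.49 (adjusted p = 0.0423, edgeR), and without D4 it was 0.71 (adjusted p = 0.183). Leaving out wt1, wt3, wt4, wt5 or D1 ended the call as well. Its neighbour Drg1 overlaps it on the opposite strand. The genes for the eIF4E-binding proteins, which block the meeting of eIF4E with its scaffold, were near the limit of detection, with at most 13 counts for Eif4ebp1, 1 count for Eif4ebp2 and 1 count for Eif4ebp3 in any oocyte.

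No helicase gene was called. Eif4a1 and Eif4a2 encode the RNA helicases of the cap complex and Eif4a3 that of the exon junction complex. Their log2 fold changes were 0.14, 0.42 and −0.58. Eif4a1 was at 587 to 1030 CPM in wt/wt, 1565 CPM in f/f and 824 to 1442 CPM in mutant oocytes. Of the cofactors that stimulate the helicase, Eif4b was not called (log2 fold change −0.05) and Eif4h was called higher. Eif4h had 12.1, 1.72, 2.45 and 13.0 CPM in the wt/wt oocytes, 4.43 CPM in f/f and 54.7, 28.0, 20.97, 24.3 and 8.95 CPM in D1, D2, D3, D4 and D7. D7 lay within the controls and the other mutant oocytes above them (log2 fold change 2.03 ± 0.61, adjusted p = 0.0236, edgeR). Without wt3, wt4 or D1 the call was lost, with an adjusted p of up to 0.0896.

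Eif5a, whose hypusine-bearing product helps ribosomes through difficult sequences, had 110, 146, 124 and 88.6 CPM in the wt/wt oocytes, 214 CPM in f/f and 563, 348, 189, 186 and 222 CPM in D1, D2, D3, D4 and D7. The f/f oocyte lay among the mutant oocytes. The log2 fold change was 1.14 ± 0.39 (adjusted p = 0.0398, edgeR), and the call was lost without any 1 of wt1, wt3, wt4, wt5, D1 or D2, with an adjusted p of up to 0.127. Its paralog Eif5a2 had at most 5 counts in any oocyte and was not tested. Eif6, which keeps the ribosomal subunits apart, was scarce and not called (log2 fold change −0.21).

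Together the 55 genes took 0.948% ± 0.055 (SD, n = 4) of all counts in wt/wt, 0.655% in f/f and 0.817% ± 0.130 (SD, n = 5) in mutant oocytes. On the TMM scale used for the other levels the order was different, with a summed level of 7143 ± 503 CPM in wt/wt, 10046 CPM in f/f and 9357 ± 891 CPM in mutant oocytes, so that the direction for the whole class depends on the scaling. Per kilobase of transcript the order of levels in controls was Eif1, Eif4e3, Eif4a1, Eif1b, Eif2b1 and Eif4g2, and in mutant oocytes it was Eif1b, Eif1, Eif4a1, Eif2b1, Eif4enif1 and Eif5a. Without D4 the mutant mean of Eif4enif1 went from 224 to 137 CPM per kilobase, behind Eif5a and Eif4a2. Eif4e3 went from the second to the ninth place, Eif2ak1 from the tenth to the nineteenth (the seventeenth without D4) and Eif3k from the 20th to the twelfth. In controls 16 of the 44 tested genes averaged at least 100 CPM and 19 were under 10 CPM, where single counts weigh on the estimate, and 5 of the 13 called genes were among the latter.

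**Figure D5:**
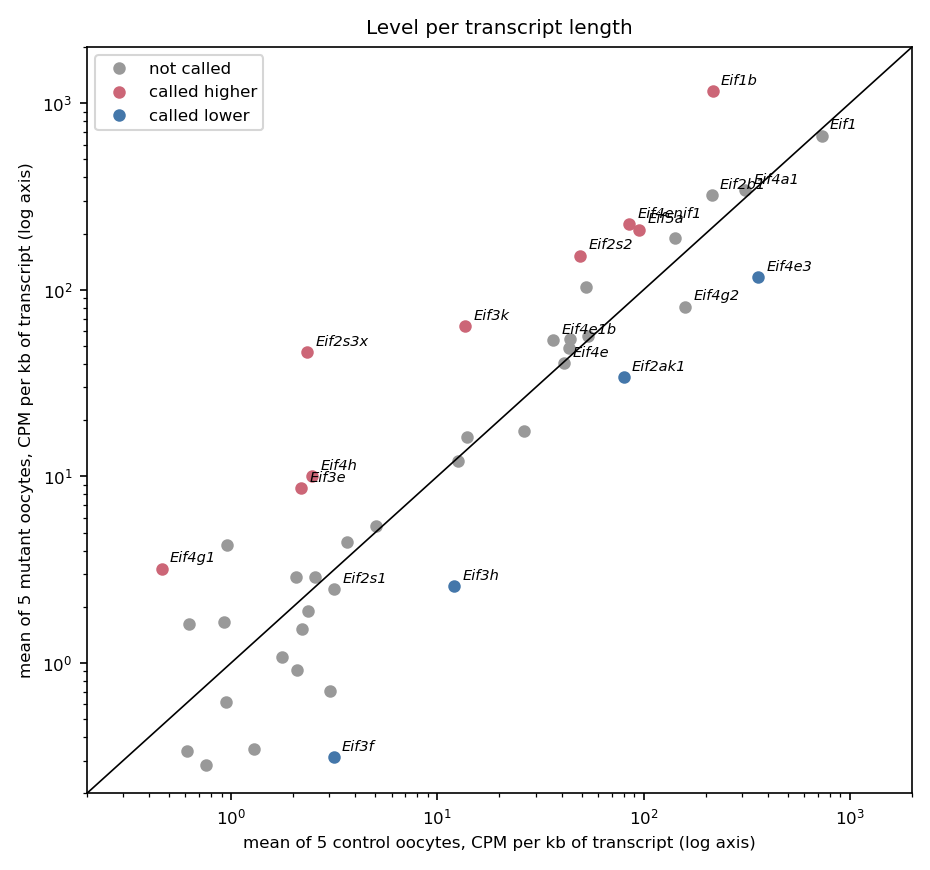
Each point is 1 of the tested genes, with the mean CPM per kilobase of transcript of the 5 control oocytes on the horizontal and of the 5 mutant oocytes on the vertical axis (both log axes), and the line marks equal levels. Eif1b lies above the line and Eif4e3 below it among the abundant genes, and Eif2s3x is the point farthest above the line.

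The f/f oocyte shares the strain background of the mutant oocytes and has an intact allele. Of the 13 called genes, for whose calls it counted among the controls, its level was nearer the wt/wt mean than the mutant mean in 10 and nearer the mutant mean in 3, Eif2s2, Eif3f and Eif5a. In 8 it lay outside the mutant range on the wt/wt side, Eif2s3x, Eif1b, Eif3k, Eif4g1, Eif4h, Eif4e3, Eif3h and Eif2ak1. In 5 it lay within the mutant range. C3 was itself a control in those calls, and no share over all called genes is given beside these counts. The counts are thus not read further. Over the 44 tested genes, C3 exceeded the wt/wt range in 14, fell under that range in 8 and stayed inside that range in 22. These were 31.8%, 18.2% and 50%, beside 28.4%, 23.4% and 48.2% of all genes tested. Mutant oocytes were also compared with the 4 wt/wt oocytes alone, a comparison that shares the mutant oocytes with the first. There 16 of the 44 genes were called, 10 of them higher, beside 31.5% of all genes tested, and these were the same 13 genes with Eif3d, Eif4g2 and Eif5 added. In these 16 genes, whose calls did not use the f/f oocyte, its level was nearer the wt/wt mean in 11, or 68.8%, beside 57.1% of all 2885 genes called there, and nearer the mutant mean in Eif2s2, Eif3d, Eif3f, Eif5 and Eif5a.

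Variation among oocytes was large in both groups. The median SD of log2 CPM over the 44 genes was 0.54 in wt/wt and 0.76 in mutant oocytes, beside 0.62 and 0.72 over all genes tested. D4 was the highest mutant oocyte in 19 of the 44 genes, or 43.2%, beside 30.7% of all genes tested. The 2 libraries summed for C3, D3, D4 and D7 differed by a median of 0.35 to 0.54 on the log2 scale over the 44 genes, beside 0.26 to 0.47 over all genes tested.

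Genes that work with initiation factors but carry other names were read from the same fit. Of 33 partners of initiation 23 were tested, 3 were called higher and 2 lower, 21.7% beside 25.9% over the whole set, with a median of −0.38 on the log2 scale. Mknk2, a kinase that phosphorylates eIF4E, was higher in every mutant oocyte than in every control, at 18.4 to 42.5 CPM against 4.74 to 14.9 CPM (log2 fold change 1.49 ± 0.44, adjusted p = 0.0211, edgeR). Rps6kb1, the S6 kinase downstream of mTOR, was lower in every mutant oocyte, at 8.75 to 11.7 CPM against 20.98 to 29.0 CPM (−1.26 ± 0.37, adjusted p = 0.0218). Pabpc4, a poly(A)-binding protein, and Larp4b were called higher, with log2 fold changes of 1.52 and 1.82, and Larp4, its relative, was called lower at −1.05. Larp4b and Pabpc4 in the f/f oocyte, at 126 and 75.8 CPM, lay above every wt/wt oocyte and within the mutant range. Of 14 genes of elongation and termination 12 were tested, Etf1, the release factor, was called higher (2.16 ± 0.64, adjusted p = 0.0213) and Eef1g, an elongation factor subunit, lower (−2.68 ± 0.86, adjusted p = 0.0311). The median of those 12 was −0.80 on the log2 scale against all controls but 0.94 against the f/f oocyte, which itself stood at −1.49 against wt/wt. Eef1g was also low in the f/f oocyte, at 0.221 CPM, against 6.12 to 22.6 CPM in wt/wt.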

How the data were processed

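Single-oocyte libraries were made from poly(A)-primed cDNA and read as single ends. The deposited values are raw counts per RefSeq gene, which the authors obtained by TopHat alignment to mm10, restricted to reads with a unique best position, and HTSeq counting (TopHat2 2.0.6 and HTSeq 0.5.3p9 in the submitters' processing notes), without normalization. The 14 libraries were summed by oocyte name into 10 oocytes, since the study states 5 oocytes per group; the labels number the libraries separately, and the meaning of the suffix on some names was not given. Library totals ran from 929452 to 3741331. Groups came from the genotype labels.

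Genes were ranked by their summed count and the upper 60% kept, 9198 of 15432 with a count. The comparison used edgeR 4.0.16 in R 4.3.3 (TMM, glmQLFit and glmQLFTest, genotype alone, Benjamini-Hochberg adjustment over those genes). Calls needed an adjusted p under 0.05 and a log2 fold change of at least 1. Log2 CPM used a prior count of 2. Every test was two-sided, and the script was checked on simulated counts. Lengths, coordinates and overlaps came from GENCODE M21 (GRCm38), matched by symbol for 23651 of 24064 genes (98.3%). Levels per kilobase used the longest transcript.

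The members and lists were chosen with earlier results of these data known. Every member is accounted for; each called member is named, and full values are given for the 4 higher and 4 lower called genes with the smallest p, for the cap-binding genes, Eif2s1 and the near-copy pairs, and the values of other members were added after they were seen. Alternatives were DESeq2 1.42.0, other scalings and filters, adjusted p alone, other uses of shared oocyte names, thinned counts, the f/f oocyte as the only control and leaving out each oocyte. Counting error depends on depth, and 3 counts, the limit that a count of 0 allows, were 0.455 to 1.82 CPM across oocytes.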

Additional observations from a re-analysis of the deposited data

Results flagged for a closer look

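Single oocytes that stood apart were looked for in each group of 5 by Dixon's ratio, the gap of the outermost oocyte to its neighbour divided by the whole range, against the critical value of 0.71. Of 40 sets of 5 values, 6 passed. About 2 would pass by chance if the sets were independent and normally distributed. The values were not log-transformed and every set that passed did so on the high side, so no excess over chance can be read from this. Eif1b in controls had a ratio of 0.75 because wt5, at 451 CPM, lay above the other controls at 128 to 208 CPM, and it still lay below the lowest mutant oocyte. Eif2s2 in controls had a ratio of 0.826, from the f/f oocyte at 569 CPM. D4 stood apart among the mutant oocytes for Eif3e, with a ratio of 0.896 at 126 CPM, and for Eif1ax, with a ratio of 0.913 at 76.0 CPM. In total counts, C3 stood apart among controls with a ratio of 0.907, and D4 among mutant oocytes with a ratio of 0.75. D4 was thus both the deepest mutant oocyte and the one with the highest Eif3e and Eif1ax, and the part of depth in these values was not tested.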

How the results depend on the processing

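The 13 called genes became 14 with DESeq2, which added Eif3d, 14 of 53 tested without a filter on low counts and 12 of 32 with edgeR's filterByExpr. They became 14 with adjusted p alone and 12 with 1 library per oocyte. They stayed 13 with DESeq2 size factors, upper-quartile scaling or thinned counts. Every library as its own sample, which treats libraries of the same oocyte as independent, also gave 13, but lost Eif5a and gained Eif1ax. Over the whole table the main fit called 2385 genes, DESeq2 2802, the fit without a filter 2540 and filterByExpr 1838. Adjusted p alone called 2415, DESeq2 size factors 2411 and upper-quartile scaling 2417. With library totals alone, 5 genes were called higher, 4 had groups that did not overlap, and the median log2 fold change was −0.2333. In all, 2632 genes were called there. For genes without overlap in these alternatives no share over all genes is given, so those counts are not read further. With the f/f oocyte as the only control, 0 of the 44 genes were called by edgeR in either direction, 7 had an unadjusted p under 0.05, and 106 genes were called in all; the lone oocyte is assumed there to vary like the others, and no other tool was run. Leaving out single oocytes gave 7 to 16 called genes, 4 to 10 higher, 2 to 6 lower, medians of 0.0743 to 0.3086, 7 to 12 genes without overlap and 1607 to 2885 genes in all.

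The replicate numbers of the labels run over libraries, so that a replicate block could be fitted only with every library as its own sample. It called 4 genes (Eif1b, Eif2s3x, Eif3k and Eif4h), 4 higher and 0 lower, with 6 lower at an unadjusted p under 0.05, and 966 genes in all in edgeR. Libraries of the same number correlated in their deviations at 0.0723, 0.101 and −0.0925 for the 3 shared numbers. Of the wt/wt libraries compared only number 4 correlated best with its own number. With so few libraries, these correlations cannot tell whether samples of the same number shared anything else.

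Eif4e, at −0.02 over all oocytes, changed sign to 0.0185 with filterByExpr, 0.1465 with every library as its own sample, 0.3768 with the f/f oocyte as the only control, and 0.001 to 0.1236 in the 5 fits without wt1, wt3, D1, D2 or D3 (0.001, 0.0207, 0.1068, 0.1236 and 0.0435), while without D4 it was −0.4438. With the f/f oocyte as the only control the sign also changed for Eif3f (0.204), Eif4e1b (−0.4858) and Eif1a (0.2998). Over 389 results recomputed for single genes, 311 kept their direction and side of the threshold, 64 lost the threshold, 3 gained it and 11 changed sign. Genes under 10 CPM are those where depth limits the estimate most.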
